A study of Sus scrofa with 6 samples.

Results

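The GTPases of immunity-associated proteins (GIMAPs) are a family of GTP-binding proteins encoded in 1 gene cluster. They were followed in pig abdominal aorta with and without atherosclerotic lesions. Members were taken as every gene whose symbol begins with GIMAP, which gave 5 of the 22861 genes in the table: GIMAP1, GIMAP2, GIMAP4, GIMAP6 and GIMAP8. GIMAP5 and GIMAP7, which complete the 7 names put forward for the family, were not analysed here. The family was selected on its measured difference between lesion and lesion-free pools, so that difference is given as a description, with no test of the family, and nothing rests on it.

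GIMAP proteins share a GTP-binding domain of the AIG1 type, named after a plant gene induced by bacterial infection. Several sit on intracellular membranes, and they are best known from lymphocytes, whose survival and development depend on some of them in mice and rats. Certain members are also found in endothelial and myeloid cells. In the diseased artery wall these cell types lie beside smooth muscle, which makes up most of the healthy media.

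The lesion group was aorta with atherosclerotic lesions from WMS FH swine, a Wisconsin Miniature Swine line with familial hypercholesterolemia, an inherited excess of blood cholesterol. The lesion-free group was aorta without lesions from WMS normal swine. Each group comprised 11 animals, whose RNA was merged into 3 pools, lesion replicates 1, 2 and 3 and lesion-free replicates 4, 5 and 6. Swine line and lesion status went together in every pool and cannot be told apart, and the sources used here do not give age, sex or diet. Nor do they say which animals entered which pool, so the spread between pools need not be the spread between animals.

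Total counts were 4650176, 10055160 and 11442433 in lesion replicates 1 to 3, and 10826175, 8492673 and 9900513 in lesion-free replicates 4 to 6. Lesion replicate 1 was the shallowest, and in it 3 counts, taken here as the detection floor, equal 0.576 CPM, against 0.268 to 0.359 CPM in the other pools. Such floors and all counting intervals cover counting error only. CPM are counts scaled to a common library size after correction by TMM, a trimmed mean of the log ratios between libraries. They are not divided by transcript length, so a gene is compared here across pools and not with another gene.

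GIMAP1, GIMAP4 and GIMAP6 were higher in all lesion pools than in all lesion-free pools, by 5.06- to 8.67-fold in the fitted model. GIMAP8 was seen almost only in lesion replicates 2 and 3, and GIMAP2 was at or below 1.92 CPM in every pool.

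GIMAP1 (ENSSSCG00000016451), which in mice is needed for mature B and T cells, had 16.7, 48.0 and 43.3 CPM in lesion replicates 1 to 3, against 8.09, 3.83 and 5.28 CPM in lesion-free replicates 4 to 6. Lesion replicate 1 lay well below the other lesion pools, and its value was 2.07 times that of the highest lesion-free pool. The mean ± SD of GIMAP1 was 36.0 ± 16.9 CPM over lesion pools and 5.73 ± 2.16 CPM over lesion-free pools (n = 3 each). The fitted log2 fold, lesion over lesion-free, was 2.66 with a standard error of 0.60, which is 6.34-fold with a 95% confidence interval of 2.60 to 15.4. Of the 3 members that passed the filter on low counts it varied most within groups, by 2.87 times between the lowest and highest lesion pool and by 2.11 times between lesion-free pools.

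GIMAP4 (ENSSSCG00000027826), a regulator of T cell death in rodents, had 23.8, 36.4 and 35.5 CPM in the lesion pools and 3.24, 3.71 and 4.17 CPM in the lesion-free pools. The lowest lesion pool was 5.72 times the highest lesion-free pool, the widest gap among the members that passed the filter on low counts. Its mean ± SD was 31.9 ± 7.01 CPM over lesion pools and 3.70 ± 0.465 CPM over lesion-free pools (n = 3 each). Its log2 fold was 3.12 with a standard error of 0.60, or 8.67-fold with an interval of 3.56 to 21.1.

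GIMAP6 (ENSSSCG00000027196), which in mammalian cells binds the autophagy protein GABARAPL2, had 60.3, 31.1 and 52.3 CPM in the lesion pools, against 8.41, 11.0 and 7.62 CPM in the lesion-free pools. Here lesion replicate 2 was the lowest of the lesion pools and still 2.83 times the highest lesion-free pool. GIMAP6 had a mean ± SD of 47.9 ± 15.1 CPM over lesion pools and 9.02 ± 1.78 CPM over lesion-free pools (n = 3 each). Its log2 fold was 2.34 with a standard error of 0.43, or 5.06-fold with an interval of 2.67 to 9.57.

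GIMAP8 (ENSSSCG00000016452), a large member that carries several GTP-binding domains, had 0, 80 and 106 counts in lesion replicates 1 to 3, against 0, 0 and 3 counts in lesion-free replicates 4 to 6. These are 0, 7.14 and 9.67 CPM in the lesion pools and 0, 0 and 0.305 CPM in the lesion-free pools. The groups overlap because lesion replicate 1 held no count, although its floor of 0.576 CPM lies far below the level of the other lesion pools. Over all pools the 186 lesion counts and 3 lesion-free counts give a ratio per scaled library of 62.2, with an exact binomial 95% interval of 21.0 to 304 that covers counting error and not the spread between pools.

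GIMAP2 (ENSSSCG00000016449), which in human cells is found on lipid droplets, had 4, 0 and 21 counts in lesion replicates 1 to 3 and 9, 0 and 0 counts in lesion-free replicates 4 to 6. Its levels were 0.769, 0 and 1.92 CPM in lesion pools, against 0.971, 0 and 0 CPM in lesion-free pools. Its 25 lesion counts and 9 lesion-free counts give a ratio per scaled library of 2.79, with an exact binomial 95% interval of 1.26 to 6.79 for counting error alone. The groups overlap, with a pool at 0 in each, so the difference does not exceed the spread between pools.

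**Figure D1:**
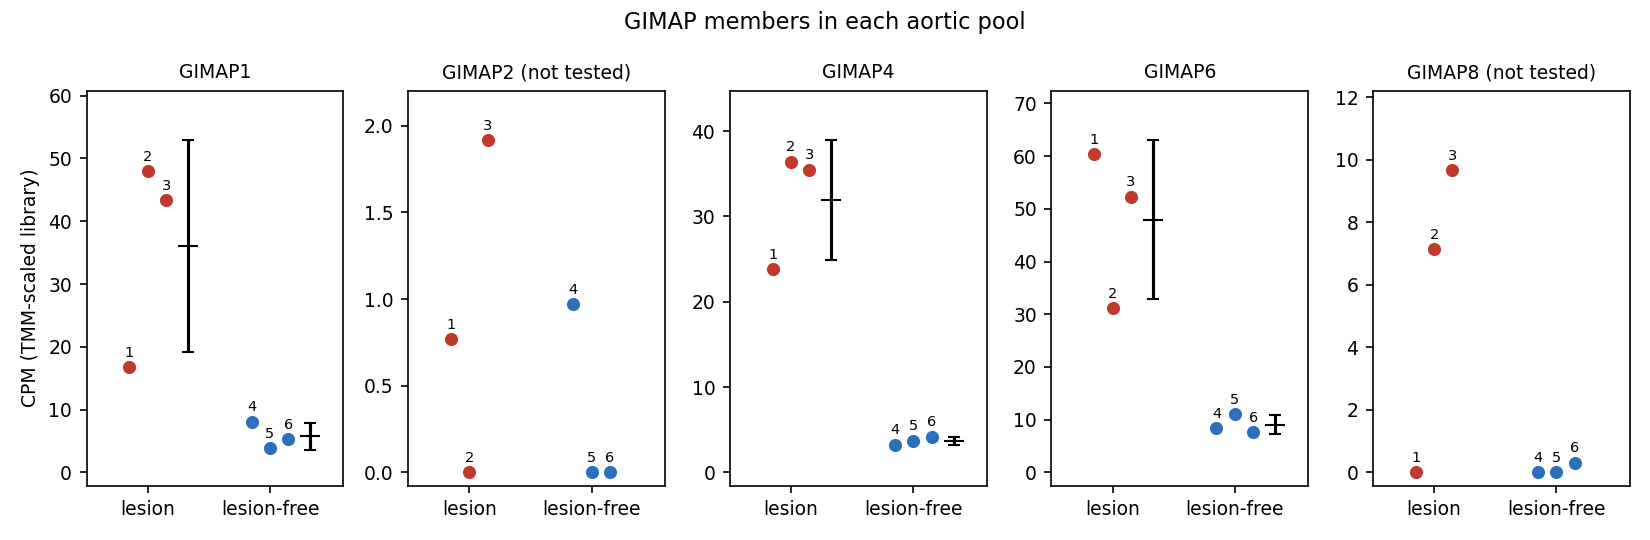
Level of each of the 5 GIMAP members in CPM (TMM-scaled library) in the 3 lesion pools (red) and the 3 lesion-free pools (blue). Each point is 1 pool, labelled with its replicate number, each panel has its own scale, and bars are mean ± SD for the members that passed the low-count filter. GIMAP1, GIMAP4 and GIMAP6 are higher in every lesion pool than in any lesion-free pool, while GIMAP8 is at 0 in lesion replicate 1.

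Of the 5 members, GIMAP1, GIMAP4 and GIMAP6 passed the filter on low counts, which asked for 1.00 CPM in at least 3 pools and 15 counts in all, and each exceeded that level in all 6 pools. GIMAP8 exceeded it in 2 pools and GIMAP2 in 1, so neither was tested. In the limma fit over all 11673 genes, 3 of these 3 were called higher and 0 lower, with an adjusted p under 0.05. Over all genes tested, 0.968% were called higher and 0.0771% lower, and 10.4% had every lesion pool above every lesion-free pool and 9.01% every lesion pool below. The contrast chose the family, so nothing is read from its count. The adjusted p-values from limma were 0.0132 for GIMAP6, 0.0181 for GIMAP4 and 0.0496 for GIMAP1, which was just inside the threshold. By fitted fold, 4.23% of all genes tested stood above GIMAP6, 3.33% above GIMAP1 and 2.26% above GIMAP4. The median log2 fold was 2.66 over the 3 members, against -0.0031 over all genes tested.

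Leaving out single pools changed the calls more than the folds. In these fits the low-count filter asked for no more pools than the smaller group held. More genes were therefore tested, 12017 to 12179 against 11673, and the effect of this on the calls was not told apart from that of the pool. Without lesion replicate 1, the shallow pool, all 3 were called, with log2 folds of 3.04 for GIMAP1, 3.27 for GIMAP4 and 2.19 for GIMAP6. GIMAP1 was not called when any other single pool was left out, GIMAP4 was not called without lesion-free replicate 4, 5 or 6, and GIMAP6 was not called without lesion-free replicate 6. Without that last pool the limma count was 0, with 3 members at an unadjusted p under 0.05, and 0.453% of all genes were then called higher. The log2 folds in these fits ran from 2.41 to 3.04 for GIMAP1, from 3.01 to 3.27 for GIMAP4 and from 2.19 to 2.65 for GIMAP6.

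**Figure D2:**
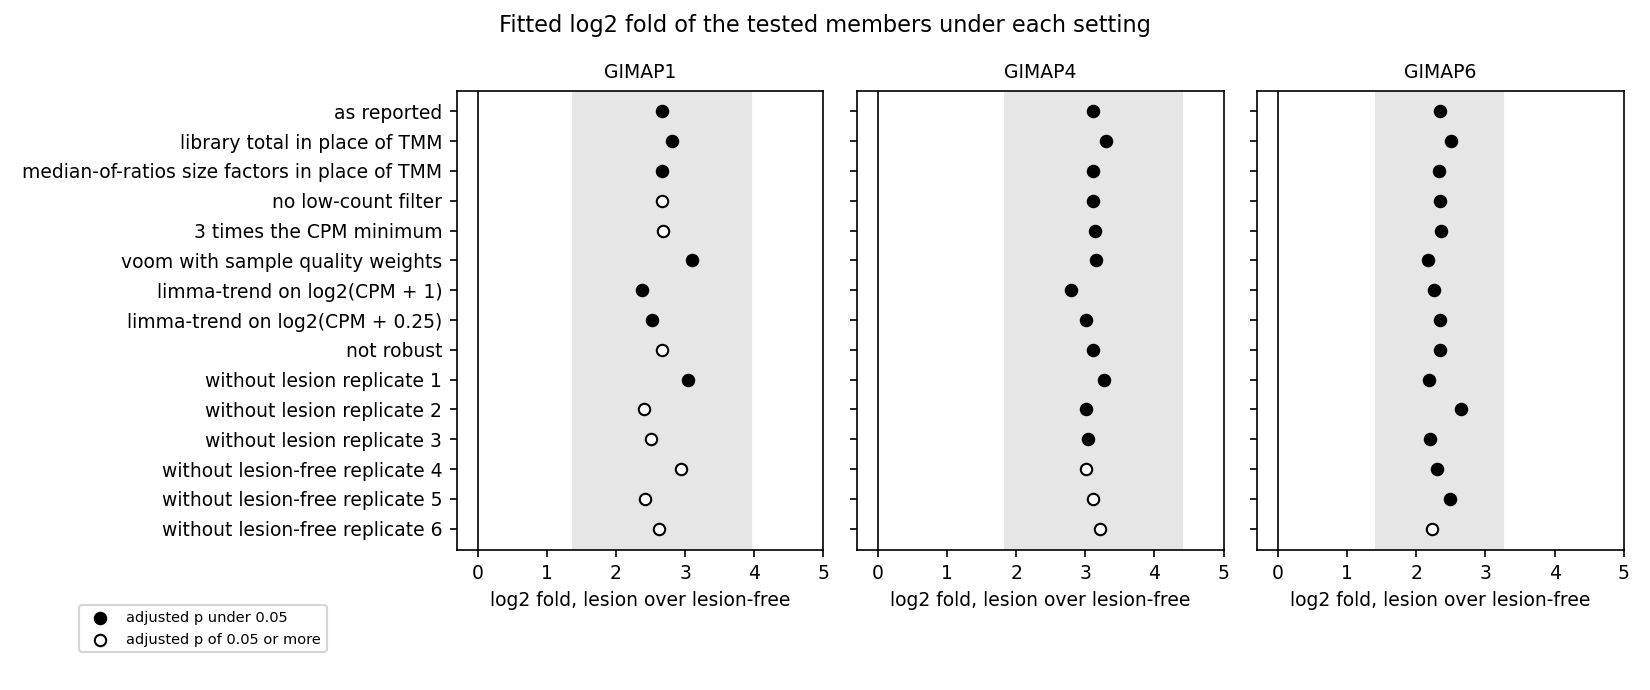
Log2 fold, lesion over lesion-free, of GIMAP1, GIMAP4 and GIMAP6 under each processing setting, with the grey band showing the 95% confidence interval of the fit as reported. Filled points have a limma adjusted p under 0.05 over all genes tested in that setting, and open points do not. All folds are positive, from 2.17 to 3.30, while the calls vary with the pool left out.

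Each member had 1 isoform in the isoform table, with counts equal to those of the gene. There, limma called 0 of the 3 tested isoforms, with all 3 at an unadjusted p under 0.05 and 0.418% of 12666 isoforms called higher. The adjusted p was 0.0575 for GIMAP6, 0.0708 for GIMAP4 and 0.196 for GIMAP1. The counts are the same, but other features surround them in that fit.

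The members did not move as 1 block within the groups. In the lesion pools GIMAP1 and GIMAP4 were highest in replicate 2, next in replicate 3 and lowest in replicate 1. GIMAP6 had the reverse order, highest in replicate 1 and lowest in replicate 2. The counts of GIMAP6 per count of GIMAP1 were 3.61, 0.649 and 1.21 in lesion replicates 1 to 3, against 1.04, 2.88 and 1.44 in lesion-free replicates 4 to 6. The groups overlap in this ratio, and lesion replicates 1 and 2 hold its highest and lowest values. GIMAP4 per GIMAP1 was 1.43, 0.758 and 0.819 in lesion pools, against 0.400, 0.969 and 0.788 in lesion-free pools, which overlap as well. On log2 CPM over the 6 pools, Pearson's r was 0.94 for GIMAP1 with GIMAP4, 0.93 for GIMAP4 with GIMAP6 and 0.80 for GIMAP1 with GIMAP6. These values carry the difference between groups. For deviations from the group means r was 0.59, -0.59 and -0.71 for the same pairs, a description of 6 pools that share depth and tissue makeup.

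Other genes were ranked by the likeness of their pattern to the mean log2 CPM of GIMAP1, GIMAP4 and GIMAP6 over the 6 pools. Among 10052 named genes, the 5 with the highest Pearson's r were CH242-402I11.1, UNC5A, TREM2, APOE and ATP6V0D2, with r from 0.995 to 0.999. These values carry the difference between groups, on which the family was selected, and are a description only. For deviations from the group means r was 0.94, 0.86, 0.78, 0.81 and 0.93 in the same order. UNC5A, TREM2 and ATP6V0D2 were at 0 CPM in all 3 lesion-free pools. Their log2 CPM there come only from library size and the constant added to each count. Both r values of these 3 genes therefore rest in part on depth, and do not show likeness among the lesion-free pools. APOE, the lipid carrier apolipoprotein E made by macrophages among other cells, had 2376, 2945 and 4942 CPM in lesion pools and 87.6, 41.8 and 57.1 CPM in lesion-free pools, and it was called higher. TREM2, a lipid-sensing receptor of macrophages, had 8.26, 9.64 and 21.4 CPM in lesion pools and was listed at 0 in all 3 lesion-free pools. ATP6V0D2, a subunit of the proton pump that acidifies lysosomes, had 2.31, 5.53 and 12.5 CPM in lesion pools and was also at 0 in the lesion-free pools. UNC5A, a netrin receptor, had 2.11, 4.37 and 4.20 CPM in lesion pools and was at 0 in the lesion-free pools too. CH242-402I11.1, the highest ranked, had 8.84, 11.1 and 11.5 CPM in lesion pools and 3.56, 3.59 and 3.56 CPM in lesion-free pools. None of TREM2, ATP6V0D2 and UNC5A was called. An r of 0.9 or more was reached by 254 other genes, 2.18% of those tested, so high values are not particular to the 5 named.

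The gene most like each member singly differed. Each was picked for the highest r over the 6 pools. Its r for deviations from the group means is thus not a separate check, and both values are a description only. For GIMAP6 it was LYZ, the lysozyme of macrophages and neutrophils, with r of 0.999 over the 6 pools and 0.993 for deviations from the group means. LYZ had 1098, 201 and 946 CPM in lesion pools, against 2.37, 5.03 and 1.73 CPM in lesion-free pools, and like GIMAP6 it was lowest of the lesion pools in replicate 2. For GIMAP4 it was EXOSC7, a subunit of the RNA exosome, with r of 0.997, and 0.860 for deviations from the group means. For GIMAP1 it was WDFY1, an endosomal protein, with r of 0.988, and 0.949 for deviations from the group means. Neither EXOSC7 nor WDFY1 was called, and their log2 folds were 0.38 and 0.64.

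In bulk RNA, a change in the number of cells of a type and a change in RNA per cell cannot be told apart. Levels of cell type markers are therefore set beside the members. The share of all genes or isoforms at an unadjusted p under 0.05 was not computed. Counts at that level, here and elsewhere, therefore have no background and nothing is read from them. Smooth muscle markers, which define the tissue, summed to 32897 to 45320 CPM in lesion pools and 72502 to 83807 CPM in lesion-free pools, with 0 of 8 tested members higher, called or at an unadjusted p under 0.05, 6 lower at an unadjusted p under 0.05, and 2 of these, CNN1 and DES of the contractile apparatus, called lower. Macrophage markers summed to 2126, 1252 and 2076 CPM in lesion pools, against 360, 241 and 194 CPM in lesion-free pools. Of their 10 tested members 8 were called higher and 0 lower, with 0 lower also at an unadjusted p under 0.05. The called genes included MPEG1, a pore-forming protein of phagocytes, C1QC of complement C1q, and the scavenger receptor MSR1. MPEG1 had 286, 173 and 276 CPM in lesion pools and 33.5, 26.8 and 24.9 CPM in lesion-free pools. CD163 and MARCO, of the same list, were at or below 0.711 CPM in every pool.

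T cell markers were low in both groups. Their 14 matched members summed to 12.9, 12.6 and 20.5 CPM in lesion pools and 11.2, 2.76 and 4.78 CPM in lesion-free pools, so every lesion sum was the higher, but limma called 0 of 5 tested members in either direction and 0 had an unadjusted p under 0.05. The receptor chain CD3E had 4.61, 0.535 and 2.37 CPM in lesion pools, against 1.19, 0 and 0.406 CPM in lesion-free pools. CD3G was at 0 in lesion replicate 1 and in all lesion-free pools. B and plasma cell markers summed to 7.69 to 14.0 CPM in lesion pools and 1.32 to 13.2 CPM in lesion-free pools. MS4A1 and PAX5 were at 0 in all pools, and limma had 0 of 2 tested members called or at an unadjusted p under 0.05. The tested members, CD22 and CD79B, had log2 folds of 1.31 and 0.52, with overlapping groups. Of the NK and cytotoxic markers, which summed to 22.3 to 60.1 CPM in lesion pools and 2.16 to 10.2 CPM in lesion-free pools, limma called 0 of 2 tested members and 1 had an unadjusted p under 0.05. That gene, NKG7 of cytotoxic granules, had 53.0, 18.3 and 56.2 CPM in lesion pools and 2.26, 0 and 1.83 CPM in lesion-free pools. GZMA, GZMK and KLRD1 were at 0 in every pool.

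Blood endothelial markers summed to 701, 967 and 1004 CPM in lesion pools and 806, 792 and 744 CPM in lesion-free pools, which overlap. Limma called 0 of 14 tested members, with 3 higher and 1 lower at an unadjusted p under 0.05. PECAM1, the endothelial adhesion molecule that platelets and leukocytes also carry, had 263, 334 and 278 CPM in lesion pools and 185, 175 and 153 CPM in lesion-free pools, a log2 fold of 0.77. ESAM, a junction protein, had a log2 fold of -1.02 and was not called either. Lymphatic endothelial markers summed to 43.0 to 105 CPM in lesion pools and 20.4 to 50.04 CPM in lesion-free pools, with 0 of 5 called and 1 higher at an unadjusted p under 0.05.

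**Figure D3:**
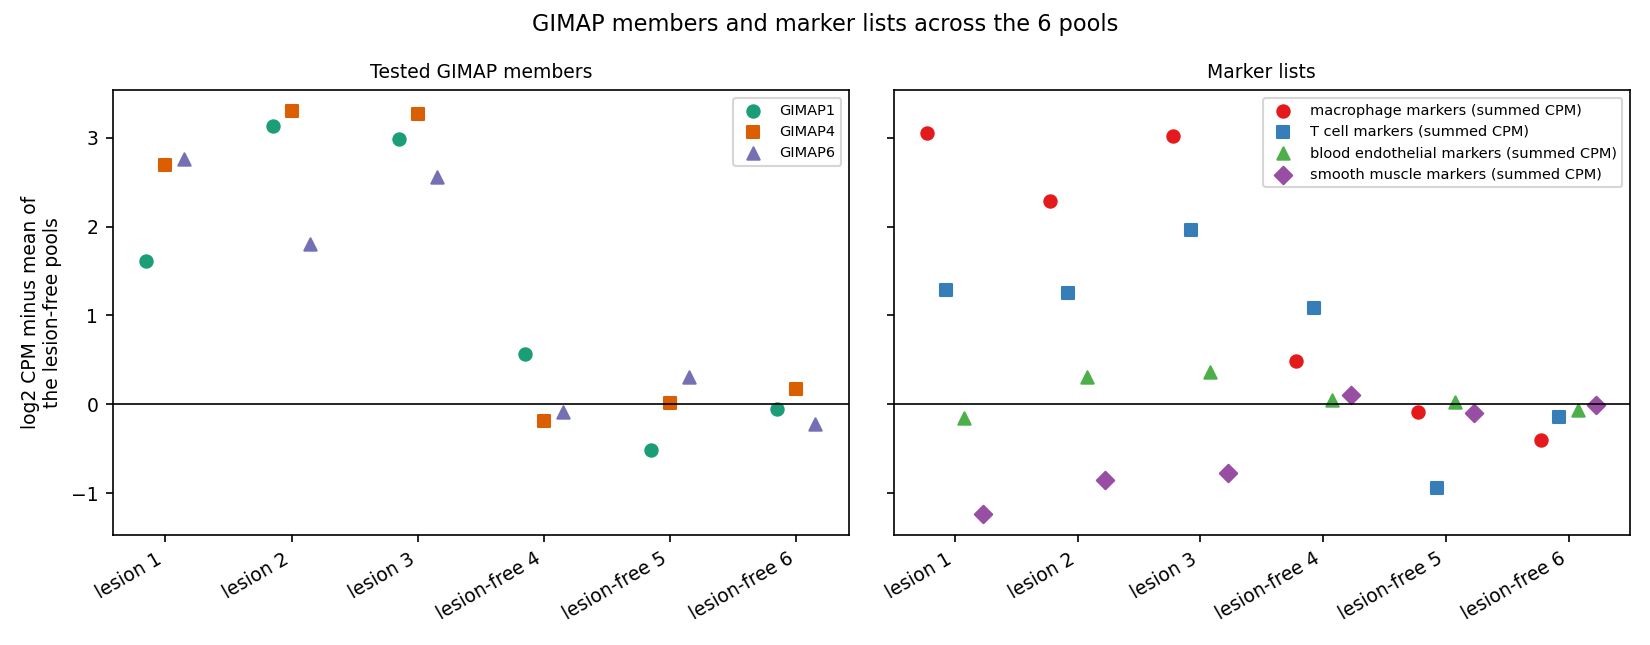
Log2 CPM minus the mean of the lesion-free pools for GIMAP1, GIMAP4 and GIMAP6 (left) and for the summed CPM of 4 marker lists (right), with 1 point per pool. Macrophage sums, T cell sums and the 3 members lie above 0 in all lesion pools. T cell sums rest on low CPM, and that of lesion-free replicate 4 also lies above 0. Blood endothelial sums lie near 0 in both groups and smooth muscle sums lie below 0 in the lesion pools.

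The summed CPM of the 5 members was 102, 123 and 143 in lesion pools and 20.7, 18.6 and 17.4 in lesion-free pools. Per 100 CPM of macrophage markers this sum was 4.78, 9.80 and 6.87 in lesion pools and 5.74, 7.71 and 8.97 in lesion-free pools, so the groups overlap once set against that list. Per 100 CPM of blood endothelial markers it was 14.5, 12.7 and 14.2 in lesion pools and 2.57, 2.34 and 2.33 in lesion-free pools, which do not overlap. Against T cell markers the ratio was 790, 975 and 695 in lesion pools and 185, 674 and 364 in lesion-free pools, which do not overlap but lie close together, on a small marker total. Against NK and cytotoxic markers it was 192, 550 and 237 in lesion pools and 202, 861 and 489 in lesion-free pools, which overlap. In lesion pools that marker total is mostly NKG7, at 53.0, 18.3 and 56.2 CPM. In lesion-free pools NKG7 was at 2.26, 0 and 1.83 CPM, in small totals of 10.2, 2.16 and 3.56 CPM. This ratio therefore sets the members against unlike genes in each group. A sum over genes weighs long and abundant transcripts most, and the part of macrophages or any other cell type in the members' difference was not tested.

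Taken singly, GIMAP6 per 100 CPM of macrophage markers was 2.84, 2.49 and 2.52 in lesion pools, against 2.33, 4.58 and 3.93 in lesion-free pools. The lesion pools lie close together on this ratio. GIMAP1 on the same scale was 0.787, 3.83 and 2.09 in lesion pools, against 2.24, 1.59 and 2.73 in lesion-free pools. GIMAP4 was 1.12, 2.91 and 1.71 in lesion pools, against 0.897, 1.54 and 2.15 in lesion-free pools. For all 3 members the groups overlap, and the lesion pools of GIMAP1 and GIMAP4 spread further than those of GIMAP6.

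**Figure D4:**
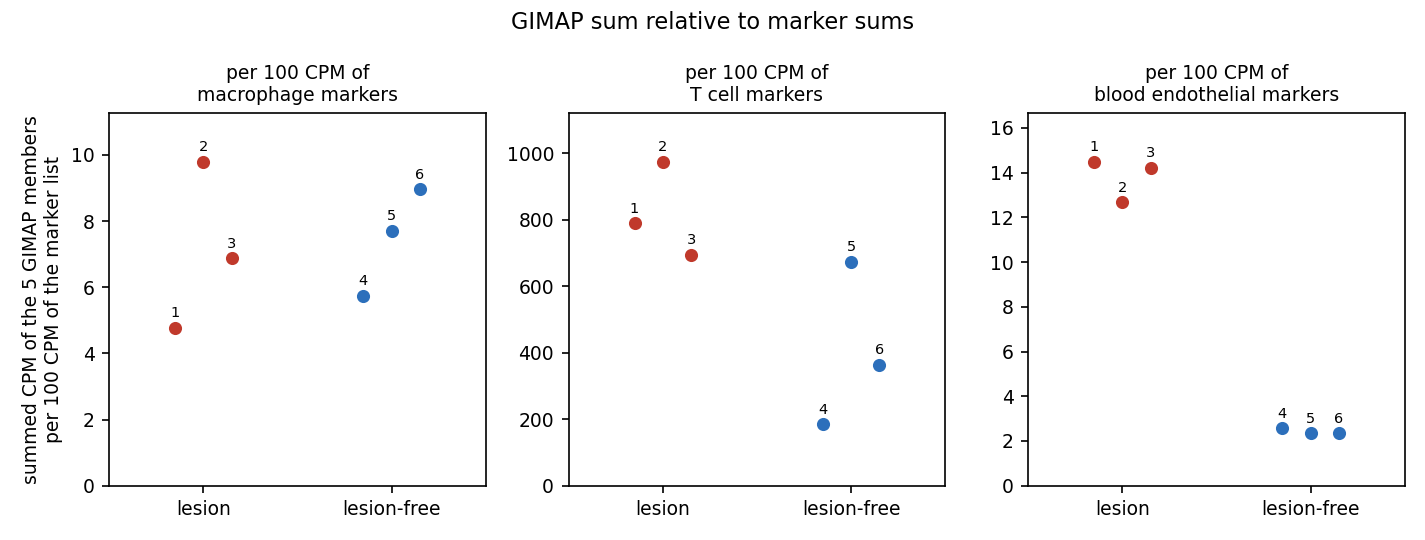
Summed CPM of the 5 GIMAP members per 100 CPM of macrophage (left), T cell (middle) and blood endothelial (right) markers, with 1 point per pool and lesion pools left of lesion-free pools. The groups overlap over macrophage markers (4.78 to 9.80 in lesion pools, 5.74 to 8.97 in lesion-free pools) and lie apart over blood endothelial markers (12.7 to 14.5 and 2.33 to 2.57), while over T cell markers lesion-free replicate 5 comes close to lesion replicate 3.

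Genes tied to GIMAP functions in other systems were read beside the members. Of the ATG8 family of autophagy proteins, to which the GIMAP6 partner GABARAPL2 belongs, limma called 0 of 5 tested in either direction, with 0 higher and 1 lower at an unadjusted p under 0.05 and a median log2 fold of -0.44. GABARAPL2 itself, named for that role, had 208, 110 and 134 CPM in lesion pools, against 220, 139 and 127 CPM in lesion-free pools, a log2 fold of -0.13. Of the BCL2 family of cell death regulators, which are partners of some GIMAPs in lymphocytes, limma called 0 of 6 tested, with 0 at an unadjusted p under 0.05 and a median of -0.07. MCL1, a survival factor of this family, had a log2 fold of -0.15, and BID, which promotes death, had -0.63.

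Among other GTPase genes, limma called 0 of 6 tested interferon-inducible GTPases, with 1 higher at an unadjusted p under 0.05 and a median log2 fold of 0.71. MX1, an antiviral GTPase, had 80.5, 101 and 201 CPM in lesion pools and 184, 110 and 107 CPM in lesion-free pools. Genes of the naive lymphocyte programme had 0 of 4 tested called, 0 at an unadjusted p under 0.05 and a median of 0.12. FOXO1, which drives that programme in lymphocytes and is also made in other cells, had a log2 fold of -0.43.

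In the RefSeq annotation of Sscrofa11.1, used for gene order only, GIMAP1 and GIMAP2 are followed by GIMAP6, GIMAP4, GIMAP7 and GIMAP8, with GIMAP5 before GIMAP1. GIMAP4 overlaps GIMAP7 there, taken without regard to strand. The annotation behind the deposited counts is not named in the sources used here. Whether the GIMAP4 values include reads of GIMAP7 was not tested and remains uncertain. The nearest gene outside the family on the GIMAP5 side is TMEM176A, a membrane protein of myeloid cells, which had 0, 0.892 and 2.10 CPM in lesion pools and 0.539, 0 and 0.203 CPM in lesion-free pools. It was not tested. Its neighbour TMEM176B, named after its values were seen, had 0, 0.089 and 5.84 CPM in lesion pools, against 3.56, 3.00 and 0.914 CPM in lesion-free pools, with overlapping groups. The gene on the GIMAP8 side was not analysed here.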

How the data were processed

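RNA sequencing of 6 pools of abdominal aorta, 3 lesion and 3 lesion-free, was read from the gene and isoform tables that the authors deposited. The library kit was a stranded one for total RNA, per the labels' protocols. The submitters' processing notes name RSEM 1.3.0 and edgeR without a role for either, and the sources used here give no aligner or genome build. The deposited values are raw estimated counts whose larger values carry commas, and these were taken out. As deposited, with commas, the columns were not recorded as counts, and limma on log2 CPM was chosen in place of count models. The values without commas would have allowed a count model, and none was run. Log2 CPM were computed from the counts with TMM scaling (30% and 5% trimming) and tested with limma 3.58.1 in R 4.3.3 (voom weights with 0.5 added to each count, robust empirical Bayes, no covariates, two-sided). Adjusted p-values are Benjamini-Hochberg over all genes tested. Groups followed the labelled lesion status. The fit was run on simulated counts with known changes, in which all genes shared the same dispersion. That run checks the code and not the spread between these pools, and nothing is read from it. No pool repeated another within sampling noise (chi-square per degree of freedom 22.7 to 97.7 between pools of a group).

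The members and lists were chosen with earlier results of these data known. The naming rule took all members, the 5 genes most like their mean, the gene most like each tested member, up to 3 called genes of each list or else the 2 with the highest level, and the nearest neighbours of the cluster. Not every gene taken by this rule is named in the text. CD163, MARCO, CD3G, MS4A1, PAX5, GZMA, GZMK, KLRD1, CD1A and CLEC10A were named outside the rule. Of 178 distinct genes in 18 lists, 143 were matched, 138 by symbol and 5 by identifier, and 94 were tested. Results that need items withheld for evaluation are not reported here. Promoter and protein sequences were not used here. Alternatives were other scaling, filters, weights, pseudocounts, moderation and leaving out each pool.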

Additional observations from a re-analysis of the deposited data

How the results depend on the processing

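The number of members called higher was 3 as reported and 2 or 3 under 8 other settings of scaling, filter, weights, pseudocount and moderation. GIMAP1 was the member not called without the low-count filter, with 3 times the CPM minimum and without robust moderation. With single pools left out the number ran from 0 to 3, with the lowest values without lesion-free replicates 4, 5 and 6. The number called lower was 0 in all of these limma fits, with 0 at an unadjusted p under 0.05. The median log2 fold of the members ran from 2.37 to 3.10 under the other settings and from 2.50 to 3.15 with single pools left out, and no direction reversed. These medians include GIMAP8 in the fits that left out lesion replicate 1 or a lesion-free pool, and GIMAP2 and GIMAP8 in the fit without the low-count filter. Over GIMAP1, GIMAP4 and GIMAP6 alone, the median with single pools left out ran from 2.48 to 3.04. Scaling by library total moved the median of all genes to 0.16 on the log2 scale, and the members' median was then 2.81. Adjusted p-values reached 0.0601 for GIMAP1, 0.0278 for GIMAP4 and 0.0157 for GIMAP6 under other settings, and 0.171, 0.127 and 0.0737 with single pools left out. Without the low-count filter, limma called 1 isoform, that of GIMAP6, in place of 0. In the gene table without that filter, GIMAP8 had a log2 fold of 4.76 with an adjusted p of 0.232, and GIMAP2 1.57 with 0.773. Under Spearman's rank correlation the 5 genes most like the members by Pearson's r had values from 0.771 to 1, with APOE alone at 1, a value that 26 named genes shared, so that ranking does not hold. The cause of these changes was not tested. No paired analysis was run, because the lesion and lesion-free pools came from animals of different swine lines. Lesion replicate 1 had the fewest counts and the highest floor of the 6 pools.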

Other observations

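Fibroblast markers summed to 7081 to 7809 CPM in lesion pools and 5378 to 6750 CPM in lesion-free pools, and limma called 0 of 8 tested, with 2 higher at an unadjusted p under 0.05. COL1A2, a chain of type I collagen, had a log2 fold of 0.51, and DCN, the matrix proteoglycan decorin, one of -0.59. Neutrophil markers summed to 0, 1.43 and 10.8 CPM in lesion pools and to 0 in all 3 lesion-free pools, and none passed the low-count filter. Dendritic cell markers summed to 2.41 to 9.99 CPM in lesion pools and 1.73 to 5.03 CPM in lesion-free pools, with CD1A and CLEC10A at 0 in every pool. Red blood cell markers summed to 42.7 to 214 CPM in lesion pools and 88.3 to 353 CPM in lesion-free pools, nerve markers to 10.2 to 22.2 CPM in lesion pools and 18.2 to 29.5 CPM in lesion-free pools, and adipocyte markers to 0 to 2.05 CPM in lesion pools and 1.22 to 7.67 CPM in lesion-free pools. Limma called 0 of the 1 dendritic cell, 3 red blood cell, 5 nerve and 1 adipocyte markers tested, with 0 at an unadjusted p under 0.05. The summed ranges of red blood cell, nerve and adipocyte markers overlap between the groups.

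Of the genes beside the cluster in the RefSeq order, NOS3, the endothelial nitric oxide synthase, had 55.7, 166 and 102 CPM in lesion pools and 63.6, 71.3 and 43.2 CPM in lesion-free pools, with overlapping groups. KCNH2, a potassium channel gene, had 20.2, 46.9 and 38.1 CPM in lesion pools and 106, 70.0 and 87.7 CPM in lesion-free pools. These groups do not overlap, its log2 fold was -1.30, and limma did not call it. Both were named after their values were seen.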
